A study of Mus musculus with 16 samples.

Results

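Immune cells read antibody and cell-surface cues through receptors of the immunoglobulin superfamily, and 9 such genes were followed here across macrophages with more or less of the lipid droplet-associated hydrolase LDAH. They were chosen by symbol, with earlier results of these data known. They are the Fc gamma receptor genes *Fcgr1*, *Fcgr2b*, *Fcgr3* and *Fcgr4*, their signalling chain *Fcer1g*, the paired immunoglobulin-like receptor genes *Pira2* and *Pirb*, and the leukocyte immunoglobulin-like receptor genes *Lilrb4a* and *Lilra5*. All 9 were found among the 48432 genes of the table.

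RNA was sequenced from thioglycolate-elicited mouse peritoneal macrophages (PM) that had been collected 5 days after 3% aged thioglycolate and then given oxidized LDL (oxLDL, 50 μg/ml) for 48 h. The 16 samples, all labelled C57BL/6J, formed 4 groups of 4: LDAH-Tg PM, which carry an extra *Ldah* under the *Csf1r* promoter and its intronic enhancer, active in macrophages and granulocytes; their Control PM, without the transgene; LDAH-KO PM, from mice in which a cassette replaces the first coding exons; and the WT controls of LDAH-KO. The label of the Control group names ApoE, and whether the mice behind LDAH-Tg and Control PM lacked *Apoe* is not given in the sources used here; *Apoe* mRNA averaged 7947 TPM in LDAH-Tg PM against 8775 TPM in Control PM. The paper made its transgenic founders in the B6D2F1 background and crossed them repeatedly to C57BL/6 mice. Its knockout line was made directly in C57BL/6. The values are the authors' 4 group means in transcripts per 1000000 (TPM), a unit already divided by transcript length. There is no value for a single sample, so no SD, p-value or depth can be given, and whether a difference exceeds the spread between mice cannot be seen.

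Fc gamma receptors bind the constant part of IgG. The activating ones (FcγRI, FcγRIII and FcγRIV) signal through the common γ-chain, whose cytoplasmic tail holds an ITAM, a pair of tyrosines that recruit the kinase Syk once Src-family kinases have phosphorylated them; FcγRIIb instead carries an ITIM, which recruits the phosphatase SHIP-1, so the balance of the activating and inhibitory receptors sets the response of a macrophage to immune complexes. The paired receptors follow the same plan: PIR-A binds MHC class I and signals through the γ-chain, and PIR-B binds the same ligands and signals through ITIMs and the phosphatases SHP-1 and SHP-2.

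Coding stretches known to hold these motifs are shown for the γ-chain and the inhibitory receptors. Stretches around the tyrosine codons (capitals) are printed from spliced GENCODE M21 transcripts of GRCm38. *Fcer1g* holds an ITAM (minus strand, within chr1:171229883-171230078), *Fcgr2b* an ITIM (minus strand, chr1:170961059-170961100), and *Pirb* several ITIM-like stretches, of which 2 are shown (minus strand, chr7:3712690-3712809). Letters alone do not divide the genes: in the coding ends searched, ITIM letters occurred 2 times in *Fcgr1* and 1 time each in *Fcgr4* and *Fcer1g*, as against 1 time in *Fcgr2b*, and ITAM letters 1 time, in *Fcer1g*.
*Fcer1g*: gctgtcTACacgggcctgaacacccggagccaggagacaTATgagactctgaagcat
*Fcgr2b*: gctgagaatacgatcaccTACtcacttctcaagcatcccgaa
*Pirb*: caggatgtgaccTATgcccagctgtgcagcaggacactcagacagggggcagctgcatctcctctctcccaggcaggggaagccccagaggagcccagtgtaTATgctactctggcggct

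*Pira2* and *Pirb* part ways in the tail but are nearly the same gene at the other end, which bears on how reads are shared between them. Their first 120 coding bases differ at 1 base (capital), and over 2039 aligned coding bases the identity was 95.5%. The stretches lie on the minus strand within chr7:3844569-3845023 for *Pira2* and chr7:3719872-3720326 for *Pirb*.
*Pira2*: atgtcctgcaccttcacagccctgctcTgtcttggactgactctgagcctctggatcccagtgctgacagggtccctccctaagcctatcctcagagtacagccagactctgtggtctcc
*Pirb*: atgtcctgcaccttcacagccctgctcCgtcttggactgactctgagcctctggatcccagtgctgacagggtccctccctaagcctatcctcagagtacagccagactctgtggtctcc

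The likeness reaches into the promoters, shown because *Pira2* and *Pirb* differed in level and in ratio, as given below. The windows run from 250 bases before to 50 bases after the RefSeq start (GRCm38.p6, both on the minus strand, chr7:3845002-3845301 for *Pira2* and chr7:3720333-3720632 for *Pirb*), and 264 of 272 aligned bases (97.1%) were identical. Capitals mark the letters GAGGAA or, on the other strand, TTCCTC, a core of sites of the myeloid factor PU.1.
*Pira2*: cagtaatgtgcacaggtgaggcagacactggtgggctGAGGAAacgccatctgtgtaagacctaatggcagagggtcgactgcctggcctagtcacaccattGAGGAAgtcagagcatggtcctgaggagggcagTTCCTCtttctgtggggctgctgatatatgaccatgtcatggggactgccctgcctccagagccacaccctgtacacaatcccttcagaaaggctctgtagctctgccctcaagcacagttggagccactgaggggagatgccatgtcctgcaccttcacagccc
*Pirb*: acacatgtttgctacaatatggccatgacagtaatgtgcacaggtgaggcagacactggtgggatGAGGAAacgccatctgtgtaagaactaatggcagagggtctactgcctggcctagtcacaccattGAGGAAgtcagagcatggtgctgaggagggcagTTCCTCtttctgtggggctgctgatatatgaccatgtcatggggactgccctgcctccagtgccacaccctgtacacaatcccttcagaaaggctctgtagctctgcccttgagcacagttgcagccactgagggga
RefSeq windows of 8 of the 9 genes were searched, and *Lilrb4a* was not among them. Of the 8, 6 held these letters on either strand (*Fcgr1*, *Fcgr3*, *Fcgr4*, *Pira2*, *Pirb* and *Lilra5*), as did 28.3% of 32851 promoter windows of the same length. A match is a string of letters and not a measured site. *Spi1*, which encodes PU.1, averaged 422 TPM in LDAH-Tg PM against 390 TPM in Control PM, and 330 TPM in LDAH-KO PM and 345 TPM in WT PM.

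The labels and the cells were checked first. *Ldah* averaged 124 TPM in LDAH-Tg PM against 28.5 TPM in Control PM, a log2 ratio of 2.10, and 27.9 TPM in LDAH-KO PM and 44.5 TPM in WT PM, a log2 ratio of -0.67; a value per gene does not show which exons were read. Of 10 macrophage markers, 9 had values in each genotype comparison and 0 differed by a factor of 1.5 in either; their median ratio was -0.06 for LDAH-Tg and -0.14 for LDAH-KO. Defining markers of mast cells, basophils and NK cells, which share these receptors, were near 0: their sums over 10 and 8 genes reached at most 2.48 and 0.28 TPM in any group. Some of the most abundant transcripts (*Lyz2*, *Ctsl*, *Ctss*, *Cd36* and several mitochondrial genes) were listed at exactly 0 in 1 or more groups, and 15, 17, 14 and 8 genes of at least 100 TPM elsewhere were at 0 in LDAH-Tg, Control, LDAH-KO and WT PM, so such a gene is given only as listed at 0, with no ratio.

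Ratios are log2 of the first group's mean over the second's, each with 0.5 TPM added, for genes with a mean of at least 1 TPM over both groups and neither at 0. "Past a factor of 1.5" is a size and not a test. By that rule *Pira2* was the 1 gene past the factor, lower, of the 7 members with a ratio between LDAH-Tg and Control PM, where 1.95% of all 11395 genes passed it in either direction and 0.685% were lower by it. Of 8 members with a ratio between LDAH-KO and WT PM, 0 passed, against 2.22% of 11289 genes. In bulk RNA such as this, fewer cells of a type and less RNA per cell cannot be told apart. The median over the members was -0.17 for LDAH-Tg (all genes 0.00) and -0.02 for LDAH-KO (all genes -0.08).

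**Figure D1:**
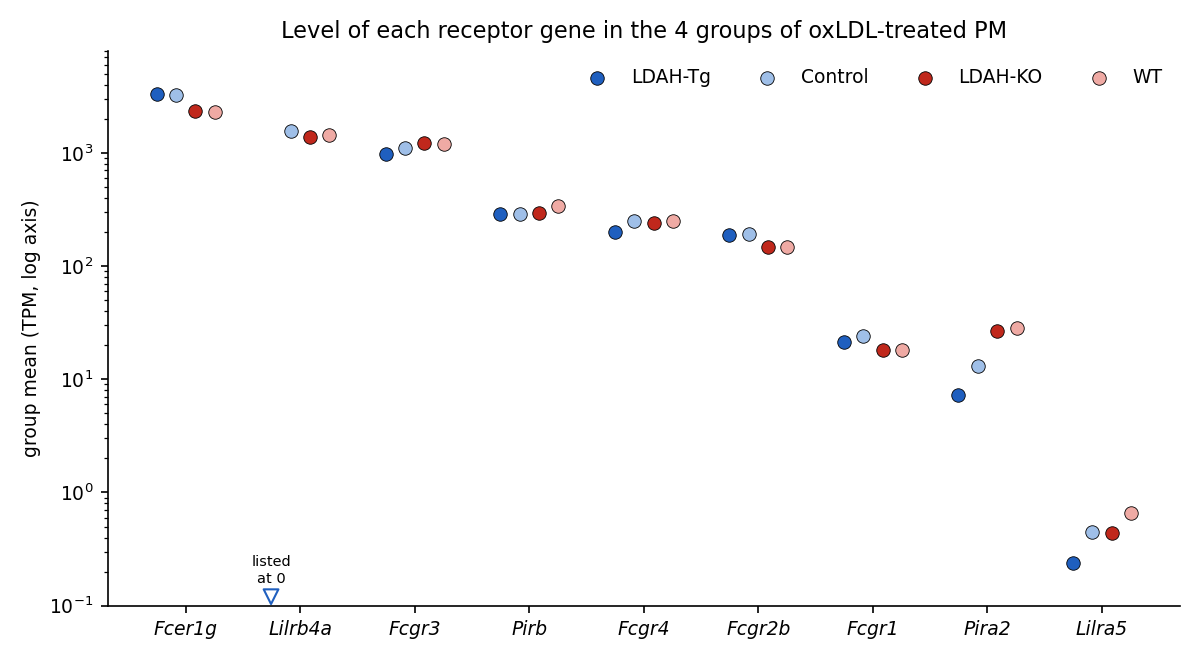
Group mean of each receptor gene in TPM (log axis) in LDAH-Tg, Control, LDAH-KO and WT PM; each point is 1 mean of 4 samples, with no error available. *Fcer1g* lay highest of the 9 in every group, the LDAH-Tg mean of *Pira2*, 7.22 TPM, was the lowest of its own 4 means, and the triangle marks *Lilrb4a*, listed at 0 in LDAH-Tg PM.

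*Fcer1g* was the most abundant of the 9 in every group. The γ-chain gene (chr1:171229572-171234365, minus strand) averaged 3336 TPM in LDAH-Tg PM against 3241 TPM in Control PM, and 2327 TPM in LDAH-KO PM and 2293 TPM in WT PM. Both genotype ratios were near 0 (0.04 for LDAH-Tg and 0.02 for LDAH-KO), while the Control mean lay above the WT mean by 0.50. The other ITAM adaptor of macrophages, *Tyrobp* (DAP12), was higher still, at 8671 and 9333 TPM in LDAH-Tg and Control PM and 7871 and 6857 TPM in LDAH-KO and WT PM.

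The 3 activating receptors lay lower in LDAH-Tg PM, each by less than a factor of 1.5. *Fcgr4*, which encodes the receptor for IgG2a and IgG2b complexes (chr1:171018920-171029761, plus strand), averaged 201 TPM in LDAH-Tg PM against 251 TPM in Control PM, 0.80 of the Control value. Its log2 ratio of -0.32 was larger in size than that of 87.2% of genes, and at a factor of 1.2 it joined *Pira2* as the second member past the line, where 19.7% of all genes stood. *Fcgr3*, the low-affinity activating receptor gene (chr1:171051174-171064935, minus strand), averaged 984 TPM in LDAH-Tg PM against 1109 TPM in Control PM (log2 ratio -0.17), and *Fcgr1*, the high-affinity receptor gene (chr3:96282909-96293969, minus strand), 21.3 and 24.3 TPM (log2 ratio -0.18). For *Fcgr3* 62.4% of genes had a smaller difference, and for *Fcgr1* 65.1%.

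In LDAH-KO PM the same 3 genes were close to their WT means. *Fcgr4* averaged 241 TPM in LDAH-KO PM and 251 TPM in WT PM (log2 ratio -0.06), *Fcgr3* 1228 and 1194 TPM (0.04) and *Fcgr1* 18.3 and 18.2 TPM (0.00). With median-ratio scaling, which moved the median of all genes in this comparison to 0.03, these became 0.05, 0.15 and 0.11, so their signs are not given weight. All 3 genes lay slightly above the median of all genes, both unscaled and with median-ratio scaling. Over all the settings tried, *Fcgr3* ran from -0.01 to 0.15.

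The inhibitory receptor gene had nearly the same mean in each genotype and in its controls. *Fcgr2b* (chr1:170958617-170976547, minus strand), which lies in the same cluster on chromosome 1 and shares 87.5% of 782 aligned coding bases with *Fcgr3*, averaged 189 TPM in LDAH-Tg PM against 191 TPM in Control PM, and 148 TPM in LDAH-KO PM and 149 TPM in WT PM (log2 ratios -0.01 and -0.00). The summed TPM of the 3 activating genes was 1206 in LDAH-Tg PM and 1384 in Control PM (log2 ratio of the sums -0.20), and 1487 in LDAH-KO PM and 1464 in WT PM (0.02). Activating over inhibitory mRNA was therefore 6.37 in LDAH-Tg PM and 7.24 in Control PM, and 10.0 in LDAH-KO PM and 9.85 in WT PM. *Fcgr4* over *Fcgr2b*, the pair that competes for the same IgG subclasses, was 1.06 and 1.31 in LDAH-Tg and Control PM, and 1.62 and 1.69 in LDAH-KO and WT PM. The gap between the 2 control lines (7.24 in Control and 9.85 in WT) was wider than that within either genotype comparison.

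*Fcgr3* made up most of the Fc gamma receptor mRNA everywhere, 70.5% of the summed TPM in LDAH-Tg PM and 70.4% in Control PM, and 75.1% in LDAH-KO PM and 74.1% in WT PM. *Fcgr2b* took 13.6% in LDAH-Tg PM and 12.1% in Control PM, against 9.08% in LDAH-KO PM and 9.22% in WT PM. For each unit of activating receptor mRNA there were 2.77 of *Fcer1g* in LDAH-Tg PM and 2.34 in Control PM, and 1.57 in both LDAH-KO and WT PM. At the sequence level these genes are well separated for read assignment: of all 100-base windows of their transcripts, the length of 1 sequenced end, 3.54% for *Fcgr2b* and 3.53% for *Fcgr3* also occur in a transcript of another gene, and 0 do for *Fcgr1*, *Fcgr4* and *Fcer1g*.

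**Figure D2:**
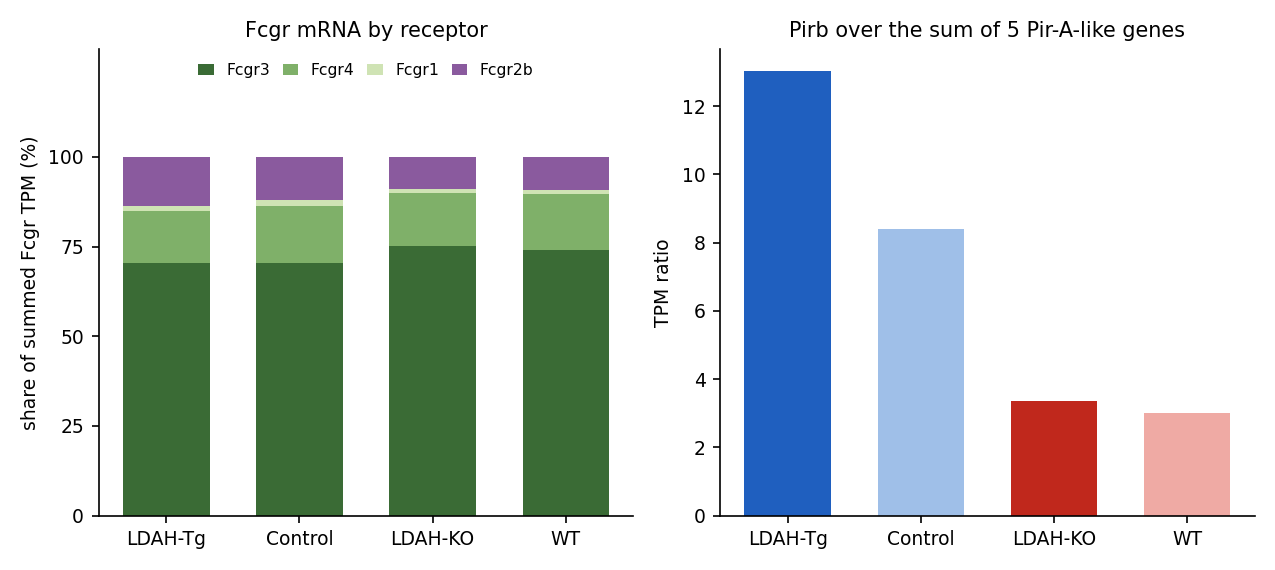
Left, share (%) of the summed Fc gamma receptor TPM taken by each receptor gene in the 4 groups, with the inhibitory *Fcgr2b* on top; right, *Pirb* TPM over the summed TPM of *Pira2* and 4 related Pir genes. *Fcgr2b* took 13.6% in LDAH-Tg PM and 12.1% in Control PM, and the Pir ratio was 13.0 in LDAH-Tg PM, 8.40 in Control PM, 3.35 in LDAH-KO PM and 3.01 in WT PM.

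In LDAH-Tg PM the inhibitory *Pirb* stayed near its Control mean and the activating *Pira2* lay below, while in LDAH-KO PM both lay slightly below WT, *Pirb* by more and *Pira2* not under median-ratio scaling (0.01). *Pirb* (chr7:3711409-3720391, minus strand) averaged 290 TPM in LDAH-Tg PM against 286 TPM in Control PM, and 297 TPM in LDAH-KO PM and 337 TPM in WT PM. Its log2 ratio was 0.02 for LDAH-Tg and -0.18 for LDAH-KO, where the median of all genes was -0.08. By the unscaled values *Pirb* was the member with the largest difference in LDAH-KO PM, and 65.5% of genes had a smaller one. Over the settings tried, its ratio there ran from -0.18 to -0.07. *Pira2* (chr7:3836812-3845051, minus strand), the activating partner, was far less abundant, at 7.22 TPM in LDAH-Tg PM against 13.0 TPM in Control PM, and 26.5 TPM in LDAH-KO PM and 28.3 TPM in WT PM. Its log2 ratio in LDAH-Tg PM was -0.81, or 0.57 of the Control value, and 99.3% of genes had a smaller difference. In LDAH-KO PM its ratio was -0.10. *Pirb* over *Pira2* was 40.2 in LDAH-Tg PM and 22.0 in Control PM, and 11.2 in LDAH-KO PM and 11.9 in WT PM.

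The order of the 4 means of *Pira2* (LDAH-Tg, Control, LDAH-KO, WT, low to high) was also that of 4 other genes of the cluster with PIR-A-type coding sequence, set together with *Pira2* after their values were seen. *Gm14548*, 97.9% identical to *Pira2* in coding sequence, averaged 4.19 TPM in LDAH-Tg PM against 8.57 TPM in Control PM (log2 ratio -0.95), and 41.9 TPM in LDAH-KO PM and 58.2 TPM in WT PM (-0.47). *Gm15448* averaged 1.71 and 2.65 TPM in LDAH-Tg and Control PM (-0.51), and 5.28 and 6.81 TPM in LDAH-KO and WT PM (-0.34). *Gm15922*, annotated as a polymorphic pseudogene, averaged 6.74 and 7.12 TPM in LDAH-Tg and Control PM (-0.07), and 11.1 and 14.2 TPM in LDAH-KO and WT PM (-0.34). *Lilra6*, 95.9% identical, had 2.41 and 2.71 TPM in LDAH-Tg and Control PM (-0.14), and 3.94 and 4.63 TPM in LDAH-KO and WT PM (-0.21). With *Pira2*, all 5 were lower in both genotypes than in their controls by any size, 2 of 5 past a factor of 1.5 in LDAH-Tg PM and 0 of 5 in LDAH-KO PM. Of all genes, 49.5% lay below 0 in LDAH-Tg PM and 66.6% in LDAH-KO PM, and since the 5 were grouped with their values known, the count is a description; with median-ratio scaling the *Pira2* ratio in LDAH-KO PM was 0.01, above 0.

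Single reads of *Pira2* cannot be assigned along most of its length, although the other end of a pair can place some, so the value of each Pir gene is uncertain. Of the 3363 windows of 100 bases in the *Pira2* transcript, 86.5% also occur in another gene, 2488 of them in *Gm15922*, which shares 99.2% of its coding bases. The share was 79.2% for *Gm15922*, 51.9% for *Gm14548*, 31.7% for *Gm15448*, 24.6% for *Pirb* and 15.8% for *Lilra6*, and how the authors assigned reads that fit several genes is not given in the sources used here. Sums depend less on such a split. *Pira2* and *Gm15922* together averaged 13.96 TPM in LDAH-Tg PM against 20.2 TPM in Control PM, a log2 ratio of -0.51, and 37.6 TPM in LDAH-KO PM and 42.5 TPM in WT PM, -0.18. All 5 genes together averaged 22.3 TPM in LDAH-Tg PM against 34.1 TPM in Control PM (-0.60), and 88.7 TPM in LDAH-KO PM and 112 TPM in WT PM (-0.34). *Pirb* added to them left 312 and 320 TPM in LDAH-Tg and Control PM (-0.04), and 386 and 449 TPM in LDAH-KO and WT PM (-0.22). Without *Gm14548*, the other 4 summed to ratios of -0.49 in LDAH-Tg PM and -0.20 in LDAH-KO PM.

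**Figure D3:**
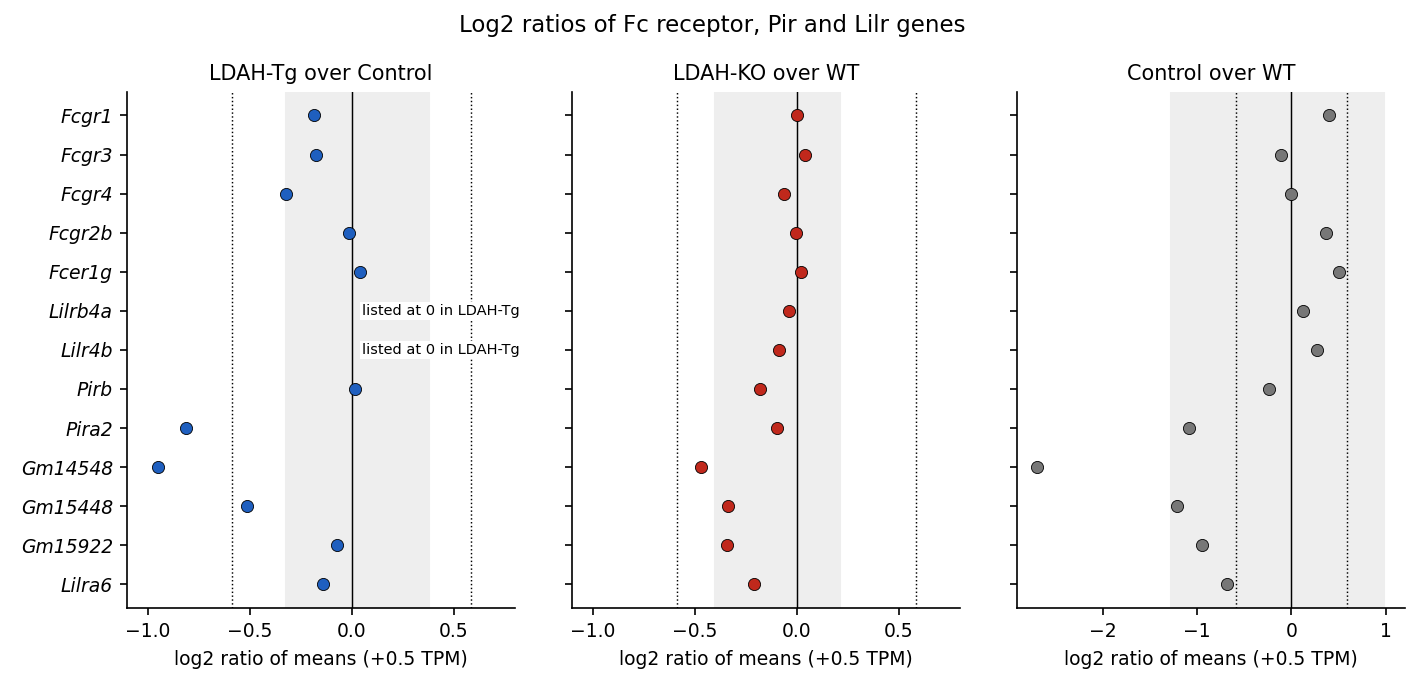
Log2 ratio of group means (after adding 0.5 TPM) for the Fc receptor, Pir and Lilr genes in 3 comparisons; dotted lines mark a factor of 1.5 and the grey band holds the central 90% of all genes. *Pira2* (-0.81) and *Gm14548* (-0.95) lay beyond the line in LDAH-Tg over Control, and the third panel has a wider scale because the 2 control lines differed in far more genes.

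Other genes beside the Pir genes on chromosome 7 had ratios on both sides of 0. Among 12 flanking genes from *Ndufa3* to *Leng9* with a ratio in LDAH-Tg PM the median was 0.00, the lowest of these was *Lair1*, a collagen receptor gene, at -0.24, and the highest *Tmc4* at 0.88. In LDAH-KO PM 11 flanking genes had a median of 0.02, with *Leng8* lowest at -0.75, past a factor of 1.5. Beyond *Leng9* lies *Gm15931*, an unprocessed pseudogene outside these counts, which was lower past the factor in LDAH-Tg PM and had the same order of means as *Pira2*: 1.98 and 3.70 TPM in LDAH-Tg and Control PM (-0.76), and 14.3 and 18.3 TPM in LDAH-KO and WT PM (-0.34). These flanking genes were picked by position after the Pir values were known, so the contrast is a description.

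**Figure D4:**
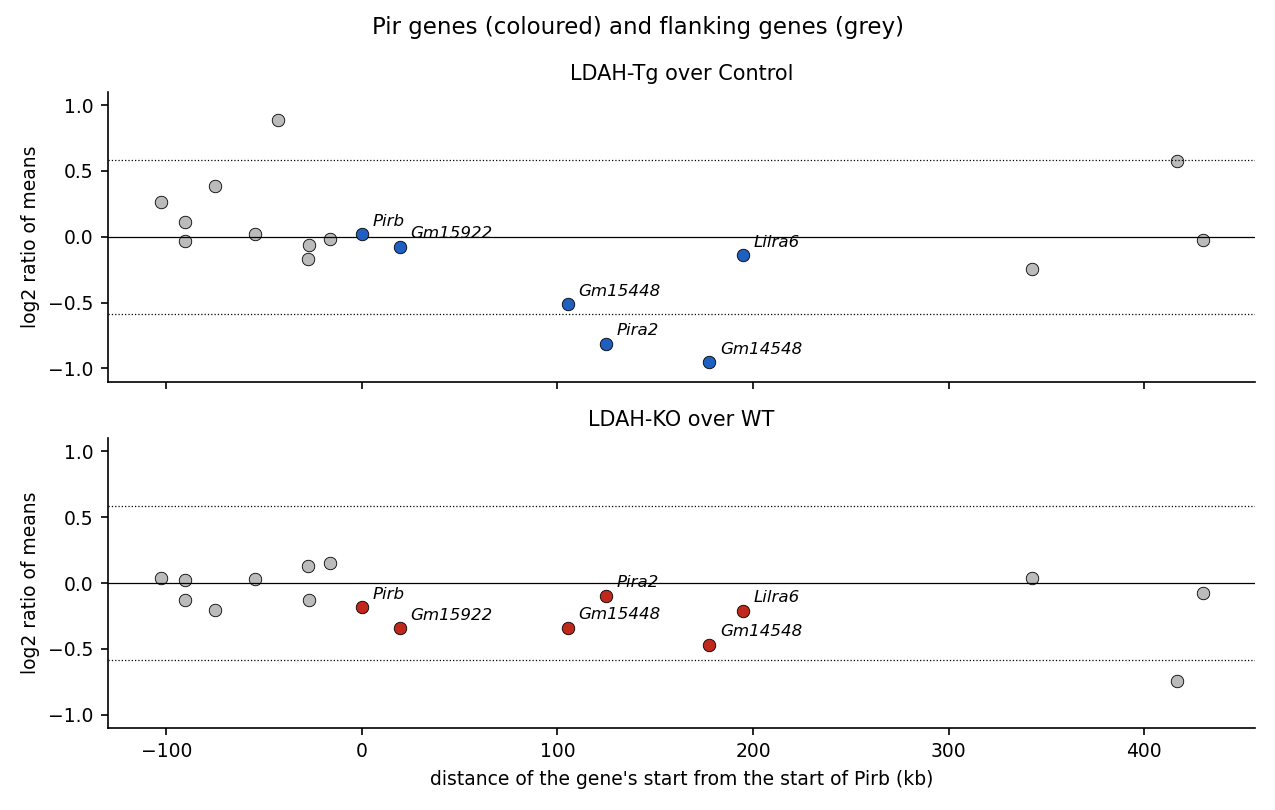
Log2 ratio of each gene with a value against the distance (kb) of its start from that of *Pirb*, for LDAH-Tg over Control (top) and LDAH-KO over WT (bottom); Pir genes are coloured and labelled, flanking genes from *Ndufa3* to *Leng9* grey, and dotted lines mark a factor of 1.5. *Pira2* lay at -0.81 and *Gm14548* at -0.95 in the top panel, while *Pirb* lay at 0.02.

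*Lilrb4a* encodes an inhibitory receptor with ITIMs (gp49B), and *Lilr4b*, beside it, the related gp49A. *Lilrb4a* was listed at 0 in LDAH-Tg PM and averaged 1563 TPM in Control PM, and it averaged 1393 TPM in LDAH-KO PM and 1430 TPM in WT PM, a log2 ratio of -0.04. *Lilr4b* was also listed at 0 in LDAH-Tg PM, against 977 TPM in Control PM, and averaged 764 TPM in LDAH-KO PM and 812 TPM in WT PM (-0.09). The authors' table places both in a single locus (chr10:51480632-51496613), and the identifier it gives *Lilrb4a* belongs in GENCODE M21 to a read-through gene that spans both, so the division of reads between them is uncertain; their sum was 2157 TPM in LDAH-KO PM and 2242 TPM in WT PM (-0.06). With abundant genes such as *Lpl* and several mitochondrial genes also at 0 in LDAH-Tg PM, the 0 is given as listed and no fold is drawn from it.

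The first 120 coding bases of the pair, printed because they lie at the shared 0, differ at 2 bases (capitals); they lie on the plus strand within chr10:51491018-51491483 for *Lilrb4a* and chr10:51480720-51481189 for *Lilr4b*. Over 907 aligned coding bases the identity was 96.0%.
*Lilrb4a*: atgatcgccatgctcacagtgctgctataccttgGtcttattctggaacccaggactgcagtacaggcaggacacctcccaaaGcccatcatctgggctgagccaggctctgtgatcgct
*Lilr4b*: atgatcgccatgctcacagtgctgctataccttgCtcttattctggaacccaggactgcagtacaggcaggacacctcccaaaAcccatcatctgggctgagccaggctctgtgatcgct
*Lilra5* (chr7:4237754-4243463, plus strand), whose human counterpart pairs with the γ-chain, was scarcely present: 0.24 TPM in LDAH-Tg PM against 0.45 TPM in Control PM, and 0.44 TPM in LDAH-KO PM and 0.67 TPM in WT PM, under the minimum of 1 TPM. No ratio is given for it.

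Genes around the receptors are described by lists, whose counts stand beside 1.95% of all genes past a factor of 1.5 in LDAH-Tg PM and 2.22% in LDAH-KO PM, so that 0 in a list of this length is near the background. Of 28 genes of ITAM signalling, 0 passed in either (median ratios -0.03 and -0.08). The kinase gene *Syk* averaged 134 and 123 TPM in LDAH-Tg and Control PM (0.12), and 135 and 159 TPM in LDAH-KO and WT PM (-0.23). *Card9*, an adaptor downstream of Syk, had the largest ratio of the list in LDAH-Tg PM, with 80.3 TPM against 58.9 TPM in Control PM (0.44), and *Pik3r1*, a PI3-kinase subunit gene, the largest in LDAH-KO PM (-0.39). Of 11 genes of ITIM signalling, 8 lay above and 3 below 0 in LDAH-Tg PM (median 0.05), where 50.5% of all genes lay above 0. The adaptor *Dok3* led, at 0.29. In LDAH-KO PM 3 lay above and 8 below (median -0.13), where 66.6% of all genes lay below 0. *Cbl* (-0.39) and the SHIP-1 gene *Inpp5d* (-0.38) were lowest there. None of the 11 passed a factor of 1.5 in either comparison.

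Among 8 other receptor genes listed here as pairing with the γ-chain, cytokine receptor genes included, the medians were -0.15 in LDAH-Tg PM and 0.06 in LDAH-KO PM. Of these, 0 passed the factor. *Clec4b1* averaged 2.72 and 3.73 TPM in LDAH-Tg and Control PM (-0.39), and 4.62 and 3.29 TPM in LDAH-KO and WT PM (0.43). *Clec4a3* averaged 52.4 and 64.9 TPM in LDAH-Tg and Control PM (-0.31), and the interleukin-3 receptor gene *Il3ra* 101 and 84.2 TPM (0.26). Of 12 other activating receptors of macrophages, 10 lay below 0 in LDAH-Tg PM (median -0.16), as did 49.5% of all genes, with the β-glucan receptor gene *Clec7a* lowest at 379 TPM against 502 TPM in Control PM (-0.41). Of 15 inhibitory receptors outside the Pir and Lilr families, 11 lay below 0 (median -0.22), with *Cd200r1* at 74.4 TPM in LDAH-Tg PM against 99.3 TPM in Control PM (-0.41). In LDAH-KO PM the medians of these 2 lists were 0.03 and -0.02. By counts of genes past 1.5, each list stood at 0 in both comparisons.

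Ligands were measured in the same libraries. *Rtn4*, the gene of the PIR-B ligand Nogo, had the largest ratio of the list in LDAH-Tg PM, at 352 TPM against 498 TPM in Control PM (-0.50), and in LDAH-KO PM its ratio was 0.06. The MHC class I genes *H2-K1* (516 TPM in LDAH-Tg PM against 632 TPM in Control PM, -0.29) and *H2-D1* (2919 and 3276 TPM, -0.17) and their light chain gene *B2m* (3938 and 4509 TPM, -0.20) all lay below 0, as did 10 of 11 ligand genes and 49.5% of all genes. In LDAH-KO PM the ratios of these 3 were 0.07, 0.10 and -0.05. *Fn1*, the gene of fibronectin, a ligand described for human LILRB4, was the 1 ligand gene of 10 past the factor in LDAH-KO PM, at 9.16 TPM against 21.5 TPM in WT PM (-1.19). Of 10 fibroblast and mesothelial markers, none of them at 0 in LDAH-KO or WT PM, 5 had a ratio and all 5 were lower by this factor in LDAH-KO PM (median -0.94, summed level of the 10 genes 18.5 TPM against 36.2 TPM in WT PM), and their part in the *Fn1* value was not tested. *C3*, whose fragments opsonize the same targets as IgG, was lower in LDAH-KO PM as well (3.48 TPM against 8.38 TPM in WT PM, -1.16), the 1 of 10 IgG effector genes past the factor. The part of fibroblasts and mesothelial cells in the *C3* value was not tested either.

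Of 16 genes known to regulate Fc receptor levels, 0 passed the factor in either genotype. In LDAH-Tg PM 11 lay above 0 and 5 below (median 0.05), where 50.5% of all genes lay above 0. In LDAH-KO PM 5 lay above and 11 below (median -0.05), where 66.6% of all genes lay below 0. *Tgfbr2*, a TGF-β receptor gene, had the largest ratio in LDAH-Tg PM, at 42.1 TPM against 52.5 TPM in Control PM (-0.31). *Ifngr1*, the interferon-γ receptor gene, averaged 115 TPM in LDAH-Tg PM against 138 TPM in Control PM (-0.26). Interferon response genes had medians of -0.02 over 10 genes in LDAH-Tg PM and -0.17 over 11 in LDAH-KO PM.

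**Figure D5:**
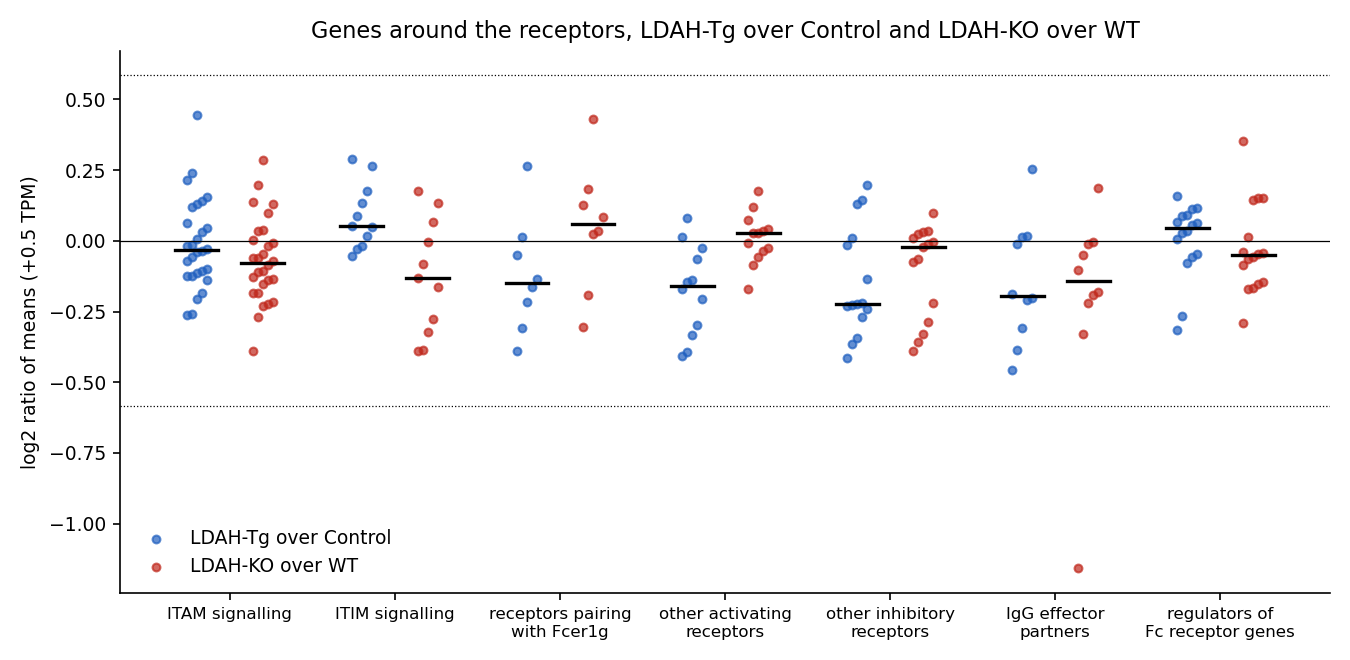
Log2 ratio (after adding 0.5 TPM) of each gene in 7 lists around the receptors, LDAH-Tg over Control in blue and LDAH-KO over WT in red; black bars are list medians and dotted lines mark a factor of 1.5. The 1 gene beyond the line is *C3* at -1.16 in LDAH-KO over WT.

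Of 14 other Fc receptor genes in the table, 3 had a ratio in LDAH-Tg PM and 4 in LDAH-KO PM, and 0 of these passed the factor. The neonatal Fc receptor gene *Fcgrt* averaged 14.1 TPM in LDAH-Tg PM against 17.7 TPM in Control PM (-0.31), and 19.95 TPM in LDAH-KO PM and 18.6 TPM in WT PM (0.10). The cytosolic antibody receptor gene *Trim21* averaged 8.32 and 8.29 TPM in LDAH-Tg and Control PM (0.01), and its ratio in LDAH-KO PM was -0.13. Of 10 B cell markers, 2 reached the minimum, and the 10 summed to 20.3 TPM in LDAH-Tg PM against 15.1 TPM in Control PM, and to 23.5 TPM in LDAH-KO PM and 23.6 TPM in WT PM. *Ighm* (14.4 and 11.7 TPM in LDAH-Tg and Control PM) and *Igkc* (3.67 and 2.06 TPM) were those 2, and *Igkc* was past the factor in both genotypes (0.71 in LDAH-Tg PM and 0.83 in LDAH-KO PM); *Fcgr2b* is also made by B cells, and the part of such cells in its value was not tested.

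The 2 control groups came from different mouse lines and their means differed widely, with 38.6% of 11404 genes past a factor of 1.5 in Control over WT. Of the 8 members with a ratio, 1 passed, *Pira2* at 13.0 TPM in Control PM and 28.3 TPM in WT PM (-1.09), where 26.5% of all genes were lower by the factor, and all 5 PIR-A-type genes were lower in Control PM by the factor, *Gm14548* most at -2.69. *Fcer1g* (0.50), *Fcgr1* (0.40) and *Fcgr2b* (0.36) lay higher in Control PM, while *Fcgr3* (-0.11) and *Fcgr4* (-0.00) were close. The median of all genes was -0.17 here and -0.03 with median-ratio scaling, under which *Fcgr3* changed sign to 0.04. Over the scalings and other settings tried, *Fcer1g* ran from 0.20 to 0.65, *Fcgr1* from 0.39 to 0.64 and *Fcgr2b* from 0.36 to 0.52, and *Fcer1g* passed a factor of 1.5 with median-ratio scaling and *Fcgr1* with quantile normalization. For *Pira2*, the line difference was larger than that of either genotype, and line and any batch cannot be told apart.

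By the distance between log2 profiles over the 4 groups, each centred on its own mean, the genes most like *Pira2* among 7249 candidates (protein-coding, mean of 10 TPM or more) were *Qpct* (0.11), *St7l* (0.12) and *Rnf149* (0.15). *Qpct*, which encodes glutaminyl cyclase, averaged 37.2 TPM in LDAH-Tg PM against 64.6 TPM in Control PM, and 130 TPM in LDAH-KO PM and 128 TPM in WT PM. The nearest to *Pirb* were *Smek1* (0.01), *Ldhb* (0.01) and *Etv3* (0.03), at 22.0 to 31.8 TPM. With 4 points per profile, these are descriptions of shape.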

How the data were processed

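The authors made poly(A)-selected, stranded libraries, sequenced them as paired ends of 100 bases, trimmed reads with Trimmomatic and aligned them to GRCm38 (mm10) with STAR 2.4.2a; their processing notes also name HTSeq and Cuffdiff 2.2.1. The deposited values are TPM, other than raw counts, as the authors' mean of each group in 4 columns; a line with no gene that holds the column total was left out. The tool behind the TPM and its annotation release are not given in the sources used here. With means alone, the planned limma fit was replaced by log2 ratios after adding 0.5 TPM, for genes of at least 1 TPM over both groups and none at 0, and by a factor of 1.5. A symbol on several entries (116 further ones) stands for the entry of highest mean.

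The 9 members and 22 gene lists were chosen with earlier results of these data known. Named genes are the members, the closest relatives by sequence or position, known ligands, and up to 3 genes of each list with the largest ratios; *Syk*, *Tyrobp*, *Spi1* and the genes of the last observations were named outside this rule, after their values were seen. Of gene IDs, 99.2% are in GENCODE M21, the source of coordinates. Promoter windows are RefSeq's. Alternatives were other pseudocounts, minimums, scalings, factors and gene types. Steps were tested on simulated data. Python 3.11.15, numpy 2.4.6, pandas 2.3.3, Biopython 1.88 and matplotlib 3.10.9 were used.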

Additional observations from a re-analysis of the deposited data

How the results depend on the processing

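No paired analysis was possible because the table holds 1 mean for each group and no value for a single sample; leaving out each sample was not run for the same reason, and depth is unknown. Over the scalings, pseudocounts and minimums tried, the *Pira2* ratio in LDAH-Tg PM stayed between -0.85 and -0.77 and that of *Fcgr4* between -0.33 and -0.30. In LDAH-KO PM *Fcer1g* ran from -0.06 to 0.13, *Fcgr4* from -0.06 to 0.05 and *Pira2* from -0.10 to 0.01. There *Fcgr3* ran from -0.01 to 0.15, *Fcgr2b* from -0.00 to 0.11 and *Lilrb4a* from -0.12 to 0.07. The signs of all these members in LDAH-KO PM therefore depend on the scaling. No alternative reversed a member past the factor.

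Between LDAH-Tg and Control PM, 144 genes were higher and 78 lower by a factor of 1.5. No pseudocount gave 234 higher; no filter on low values gave 255 and 133; a minimum of 5 TPM gave 57 and 39; protein-coding genes alone gave 71 and 36; a factor of 1.2 gave 1281 and 966, and a factor of 2 gave 29 and 20. Members past the factor were 1, 2 at a factor of 1.2, 2 with genes listed at 0 kept (*Lilrb4a*) and 0 at a factor of 2. Between LDAH-KO and WT PM, 44 genes were higher and 207 lower. No filter gave 98 and 362; a minimum of 5 TPM gave 11 and 64; median-ratio scaling gave 64 and 149; quantile normalization gave 80 and 134; keeping genes at 0 gave 67 higher; protein-coding genes alone gave 9 higher; a factor of 1.2 gave 363 and 1757, and a factor of 2 gave 17 and 46. The median of the members was -0.02 and became 0.088 with median-ratio scaling. Between Control and WT PM, 1377 genes were higher and 3027 lower. Median-ratio scaling gave 1962 and 2265, quantile normalization 2104 and 2090, a factor of 1.2 gave 2862 and 5090, and a factor of 2 gave 536 and 1172. Members past the factor were 1, 2 with either scaling and 4 at a factor of 1.2, and their median of 0.06 became 0.21 with median-ratio scaling. The causes of these moves were not tested, beyond the change of minimum, factor or gene type itself.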

Other observations

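Markers of other cells that carry these receptors, not described above, are given by value. Of 10 neutrophil markers, 3 had a ratio, with medians of 0.04 in LDAH-Tg PM and 0.09 in LDAH-KO PM. *S100a8*, a calcium-binding protein gene of neutrophils and monocytes, averaged 98.8 and 107 TPM in LDAH-Tg and Control PM (-0.12). *Csf3r* averaged 24.4 and 20.1 TPM in these groups (0.27), and the ratio of *Ltf* between them was 0.04. *S100a9* was at most 0.74 TPM in any group, and *Ly6g* was at 0 in all 4. Of 8 T cell markers, 2 had a ratio. *Cd28* stood at -0.35 in LDAH-Tg PM and -0.34 in LDAH-KO PM, and *Lck* at -0.38 in LDAH-Tg PM and 0.03 in LDAH-KO PM. *Cd3e* was at most 0.01 TPM in any group. The eosinophil marker *Siglecf* had ratios of -0.22 and -0.07, the platelet gene *Pf4* -0.20 and 0.16, and the dendritic cell integrin gene *Itgax* -0.05 and -0.46 in LDAH-Tg and LDAH-KO PM. Each was the 1 gene with a ratio in its list, of 6, 5 and 8 genes. The next highest mean in any group was 0.11 TPM (*Ccr3*), 0.45 TPM (*Itga2b*) and 0.41 TPM (*Zbtb46*). These single genes therefore do not show that such cells were present. For *Itgax*, LDAH-KO PM had 296 TPM against 406 TPM in WT PM, larger in size than the difference of 95.8% of genes.

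The macrophage surface gene *Adgre1* (F4/80) averaged 22.4 and 33.1 TPM in LDAH-Tg and Control PM (-0.55), and 147 and 146 TPM in LDAH-KO and WT PM, a line difference of -2.13 in Control over WT. The lectin receptor gene *Clec7a* (-1.84) and the checkpoint gene *Vsir* (-1.96) were also lower in Control than in WT PM. These genes were picked after their values were seen.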
